A study of Rattus norvegicus with 30 samples.

Results

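Methylated DNA of the prefrontal cortex (PFC) was measured by meDIP-seq in 30 Sprague-Dawley rats at postnatal day 22, and 316 autosomal regions were studied in which peaks were rarely called after pair-feeding and mostly called in the other groups. Peaks of all 30 libraries that shared at least 1 bp were merged on chromosomes 1 to 20 of the rat genome build Rn6, which gave 604866 regions, 352026 of them called in at least 3 libraries. A region was chosen when at most 3 of the 10 pair-fed (PF), at least 7 of the 10 control (CON) and at least 7 of the 10 prenatal alcohol exposed (PAE) libraries had a called peak, which took 0.0898% of the regions called in at least 3 libraries. The calls themselves chose the regions, so the low PF values at these regions are a description and were not tested.

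The dams of the CON group ate pelleted control diet freely, PF dams received a liquid control diet with maltose-dextrin in place of ethanol, in the amount eaten by an alcohol-fed partner, and PAE dams received a liquid diet with 36% of its calories from ethanol, all from gestation day 1 to 21. Each group had 5 dams, and each dam gave 1 offspring labelled female and 1 labelled male. PF dams thus shared the reduced intake and the liquid diet with PAE dams but not the ethanol, and differed from CON dams in the form and the amount of their food. The tissue was a mixture of cell types, so a change in cell makeup and a change in DNAm within cells cannot be told apart.

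DNA methylation (DNAm) is the addition of a methyl group to cytosine, in mammals mostly where cytosine is followed by guanine, and it takes part in the control of gene activity and in the silencing of repeats. In meDIP-seq an antibody against methylated cytosine pulls down DNA fragments, and a peak marks a place where such fragments pile up above the surrounding level. Pair-feeding serves as the control for reduced intake in alcohol studies, but dams that get a fixed ration are hungry for part of the day, so the treatment is not neutral. The PFC, which serves planning and control of behaviour, matures late and keeps developing after weaning.

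The libraries held 11548314 to 16555049 filtered fragments and 103898 to 208631 autosomal peaks, and the ranges of the groups overlapped. By the labels they were run on 5 lanes, of which lane 4 has no PF and lane 7 no PAE library. By their peaks on the sex chromosomes, 18 of the 30 libraries went against their labelled sex. In 13 of the 15 libraries labelled female 38 to 87 peaks were called on chromosome Y, and in 5 labelled male only 6 to 11. Labelled sex is therefore used below as a name for separate sets of libraries from the same labelled dams. The labels of dam and treatment were kept as given, and whether they hold was not tested.

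Most of the 316 regions lay at the edge of the rule. The number of PF libraries with a called peak was 3 at 240 regions, 2 at 58, 1 at 18 and 0 at 0 regions. At 174 regions exactly 7 CON libraries were called and at 194 exactly 7 PAE libraries, and 82 regions stood at the limit in all 3 groups at once. At 7 regions at least 9 libraries of both CON and PAE were called, and at 0 regions all 20 were. No region was therefore absent from every PF library and present in every other one.

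Just outside the rule, 645 regions missed it by having 4 PF calls, 240 by having 6 CON calls and 361 by having 6 PAE calls. Heights are given as the highest pileup, the number of fragments over a peak's summit, per 1000000 filtered fragments. Libraries without a called peak were set to a floor of 0.438, and called peaks under it were raised to it. The 240 regions with 3 PF calls had a median of mean heights of 0.567 in PF, 0.799 in CON and 0.733 in PAE. The 645 regions with 4 PF calls had 0.611 in PF, 0.816 in CON and 0.743 in PAE. The members at the limit and the regions next to it thus differed little in height.

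Over all 316 regions mean heights had a median of 0.811 in the CON group, 0.741 after PAE and 0.555 after pair-feeding. The PF mean was below the CON mean at 316 regions and below the PAE mean at 308. The median log2 ratio of mean heights was -0.53 for PF over CON, with a range of -1.35 to -0.01, and -0.41 for PF over PAE, with a range of -1.13 to 0.08. These gaps come from libraries without a call, so their size depends on the floor. Where a PF library did have a called peak, its median height was 0.852, against 0.902 in CON and 0.812 in PAE. At 0 of the 316 regions did all PF libraries lie below all libraries of both other groups. The floor fixed this in advance, because at every region some CON or PAE library had no call.

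**Figure D1:**
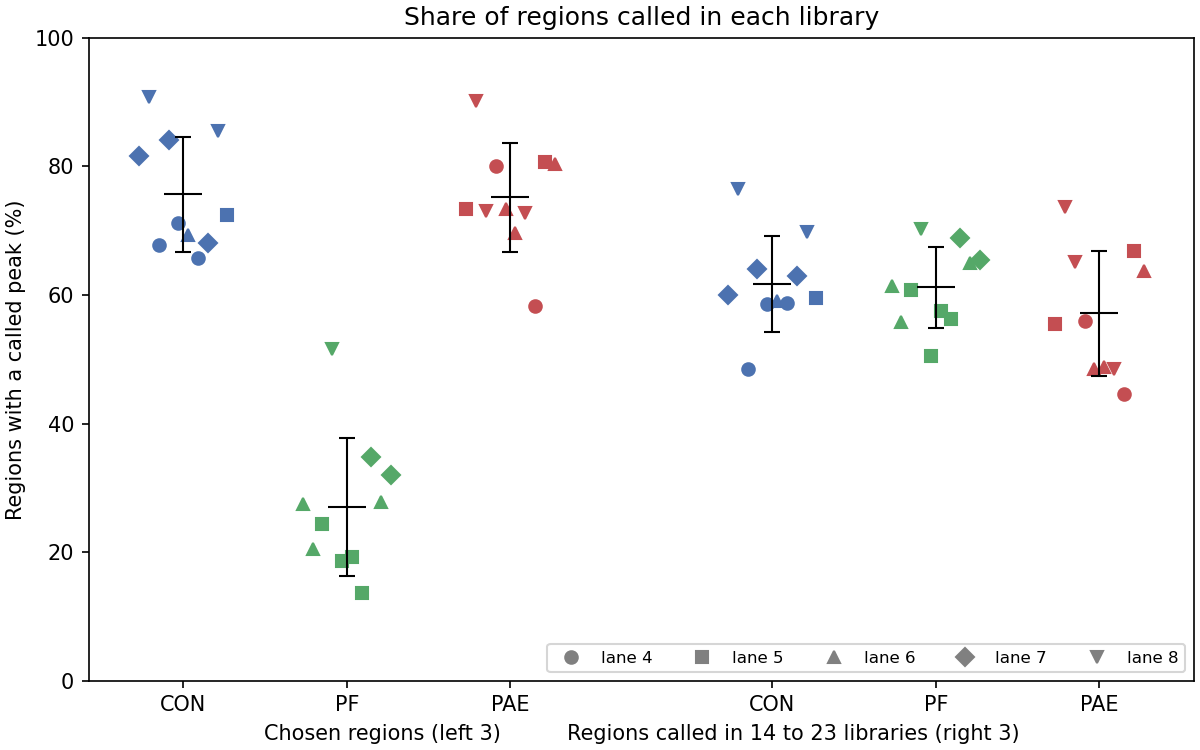
Share of regions with a called peak (y axis, percent) in each library of the CON, PF and PAE groups, on the left over the 316 chosen regions and on the right over the 66672 regions called in 14 to 23 libraries. Points are libraries, their shapes the sequencing lanes, and bars the mean ± SD of 10 libraries. The rule sets the low PF shares on the left (13.6% to 51.6%), and on the right the groups overlap.

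Each library's share of the 316 regions with a called peak shows which animals carry the choice. It was 65.8% to 90.8% in CON, with a median of 71.8%, and 58.2% to 90.2% in PAE, with a median of 73.4%. In PF it was 13.6% to 51.6%, with a median of 25.9%. Over the 66672 regions called in 14 to 23 libraries, a set of similar overall call rate, CON libraries had a mean share of 61.8%, PAE libraries 57.1% and PF libraries 61.2%.

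The highest PF library, 27_F, had calls at 163 of the 316 regions. It had the most peaks of the PF libraries (184391) and was the only PF library on lane 8. The shares of the other PF libraries were 13.6% to 24.4% in the 4 on lane 5, 20.6% to 27.8% in the 3 on lane 6, and 32.0% to 34.8% in the 2 on lane 7. On lane 5 the CON library had 72.5% and the 2 PAE libraries 73.4% and 80.7%. On lane 6 the CON library had 69.3% and the 3 PAE libraries 69.6% to 80.4%. On lane 7, which held no PAE library, the 3 CON libraries had 68.0% to 84.2%. On lane 8 the 2 CON libraries had 85.4% and 90.8%, the 3 PAE libraries 72.8% to 90.2% and 27_F 51.6%. The PF share thus differed between lanes. Over the regions called in 14 to 23 libraries the PF share was also highest on lanes 7 and 8, at 65.5% to 70.3%. With that share subtracted, PF libraries stood at -42.6 to -31.8 percentage points on lane 5 and -37.2 to -33.9 on lane 6. On lane 7 they stood at -34.1 and -33.5, and 27_F at -18.7. The unsubtracted PF share stayed below those of the CON and any PAE libraries on each lane that held PF, as the rule makes likely. The part of the lane in the choice was not tested.

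Littermates shared about as many calls at these regions as other animals of their group. The mean share of the 316 regions with the same call was 57.3% over the 5 littermate pairs and 56.9% over the 20 other pairs of PF. It was 59.7% and 59.9% in CON, and 59.1% and 60.1% in PAE. Of the 1580 combinations of a region with a PF litter, both littermates were called in 90, one in 674 and neither in 816.

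The 10 regions with the widest gap in calls between PF and the lower of CON and PAE were taken as examples. Region 1, chr13:45561831-45562285, had calls in 8 CON, 8 PAE and 1 PF library. Its heights were 0.438 to 1.63 in CON, with a median of 1.10, and 0.438 to 2.00 in PAE, with a median of 0.984. In PF, 9 libraries were at the floor and 27_F had 0.716. The PF library with a peak lay below all 8 CON peaks, which were 0.866 to 1.63, and inside the range of the PAE peaks, which were 0.606 to 2.00. The peak rested on 9 fragments in 27_F, on 10 to 23 in CON and on 9 to 28 in PAE.

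Region 2, chr19:22920984-22921466, also had calls in 8 CON, 8 PAE and 1 PF library. Its medians were 0.873 in CON and 0.780 in PAE, with highest values of 1.20 and 1.29. The PF peak, again in 27_F, reached 1.03 and lay inside the range of both groups. Region 4, chr2:40193632-40194572, and region 6, chr4:74120361-74121310, had the same numbers of calls and the same PF library. At region 4 the medians were 0.837 in CON and 0.780 in PAE, and 27_F had 1.11. At region 6 they were 0.572 and 0.716, and 27_F had 1.03, above each PAE library and below only CON 45_F at 1.20. The single PF call was thus inside or above the range of the other groups at these 3 regions.

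Regions 3, 5 and 7 had calls in 9 CON, 9 PAE and 2 PF libraries, the most of any of the 10 examples. At region 3, chr7:75672107-75672652, the median was 0.950 in CON and 0.846 in PAE, and the PF peaks of 27_F and 26_M were 1.19 and 1.14, above both medians. At region 5, chr15:15520644-15521797, the medians were 0.644 and 0.713, and PF had 0.459 in 24_F and 0.846 in 27_M, which was above the highest PAE library at 0.837. At region 7, chr7:31104156-31106071, the medians were 0.476 in CON and 0.744 in PAE, and PF had 0.439 in 22_M and 0.604 in 27_M. Region 7 was low in CON too, where the highest library reached 0.725, and its CON peaks rested on 5 to 11 fragments.

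Regions 8, 9 and 10 each had 1 PF call, in 3 different libraries. Region 8, chr7:63222864-63223355, was among the highest of the examples, with medians of 1.32 in CON and 1.00 in PAE and a PF peak of 0.849 in 28_F. Region 9, chr2:139924-140673, had medians of 1.03 in CON and 1.16 in PAE, and its PF peak in 22_M was 1.32. Region 10, chr1:194535344-194535765, had medians of 0.989 and 0.913 and a PF peak of 0.966 in 27_M. The PF peak lay inside the range of the CON peaks at all 3. It lay below all PAE peaks at region 8 (0.883 to 1.65) and inside their range at regions 9 and 10. Over the 10 examples, 8 had a PF call from 27_F or 27_M, the offspring of 1 dam.

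**Figure D2:**
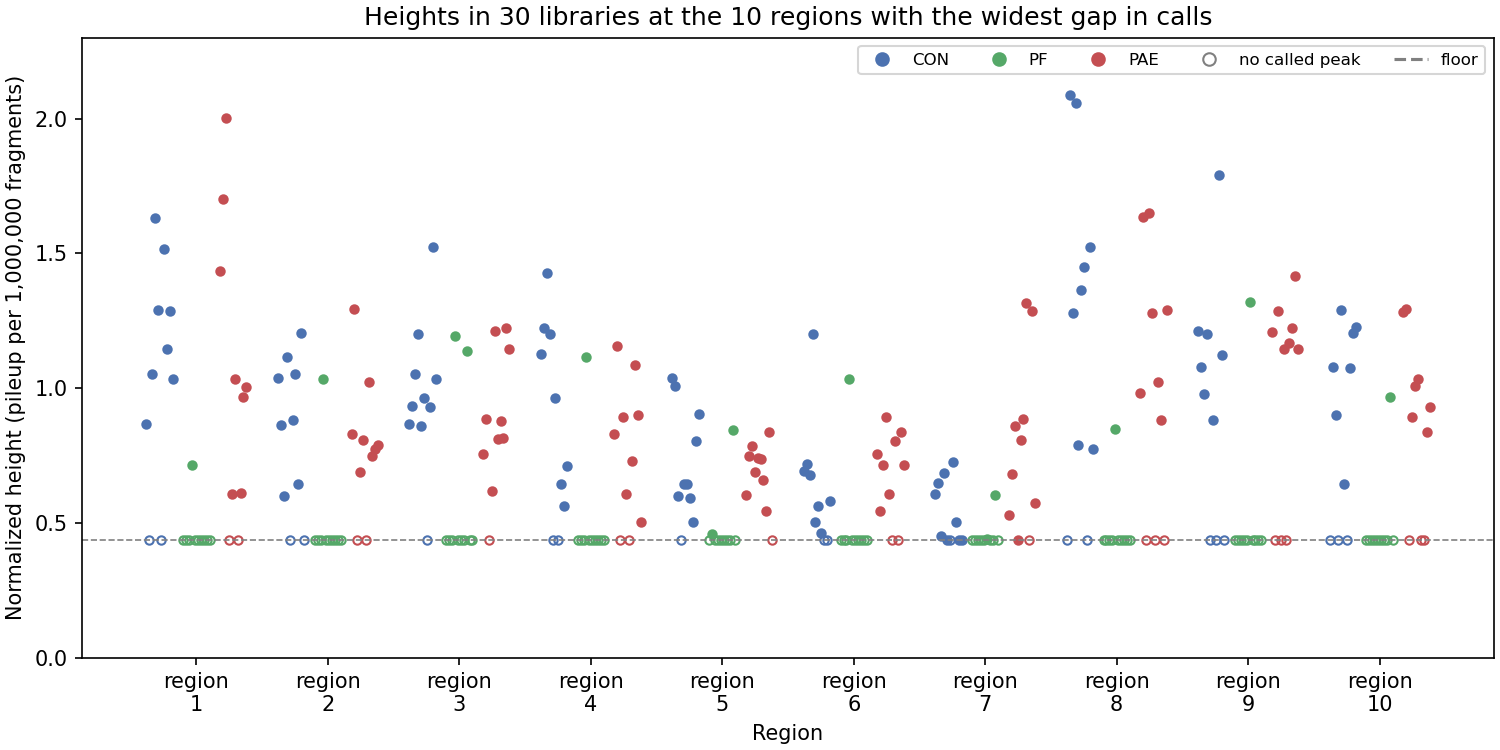
Normalized height (y axis, highest pileup per 1000000 filtered fragments) in 30 libraries at the 10 regions with the widest gap in calls (x axis), coloured by CON, PF and PAE. Open points on the dashed line are libraries without a called peak, set to the floor of 0.438. Filled points on the line are called peaks raised to the floor. PF has 1 or 2 filled points per region, which fall among those of the other groups at most regions.

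Of the 316 regions, 1 overlapped an interval to which the supplementary tables of the study assign a gene, out of 552 such intervals. The share of all tested regions that overlapped such an interval was not computed, so whether 1 is few or many is not known. Those intervals were selected on these same libraries, so most of the genome has no gene name here. Region 126, chr7:134708600-134709037, lay at an exon and intron of Prickle1, a core component of planar cell polarity signalling, which orients cells within a tissue. It had calls in 8 CON, 7 PAE and 3 PF libraries, at the PF and PAE limits of the rule. Its heights were 0.438 to 1.93 in CON, with a median of 1.03, and 0.438 to 1.63 in PAE, with a median of 0.780. The 3 PF peaks, in 27_F, 28_F and 26_M, were 0.875, 0.708 and 0.712, all above the floor and below the highest library of each group.

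A further 3 regions lay within 20 kb of a listed interval with a gene, and were picked for this distance alone. Region 41, chr18:60704480-60705115, was 1.12 kb from an intronic interval of Nedd4l, a ubiquitin ligase that acts on ion channels, and had calls in 7 CON, 8 PAE and 2 PF libraries. Region 211, chr17:80812857-80814677, was 15.6 kb from an intronic interval of Trdmt1, a methyltransferase of transfer RNA, with calls in 7, 7 and 3. Region 11, chr18:5048043-5048690, was 19.8 kb from an intronic interval of Zfp521, a zinc finger protein with a role in neural differentiation, with calls in 8, 8 and 2. Their mean heights in CON, PAE and PF were 0.867, 0.830 and 0.504 at region 41, 0.744, 0.691 and 0.546 at region 211, and 1.04, 0.916 and 0.536 at region 11. Whether these regions lie in the same genes was not determined.

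The region with the highest mean height in CON and PAE was region 134, chr6:103810422-103810864, with calls in 9 CON, 7 PAE and 3 PF libraries. Its medians were 1.90 in CON and 1.25 in PAE. The 3 PF peaks were 2.12 in 28_F, 2.63 in 26_M and 1.69 in 27_M. The peaks of 28_F and 26_M exceeded the CON median, and the peak of 26_M exceeded every PAE library, the highest of which was 2.56. The longest region was region 248, chr6:28501171-28503374, at 2204 bp, with calls in 7, 7 and 3 libraries and PF peaks of 1.05, 1.11 and 0.925. At both regions the called PF peaks lay inside or above the range of the PAE peaks.

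Features that the rule did not use set the chosen regions little apart from the 66672 regions called in 14 to 23 libraries. Their median length was 676 bp against 664 bp, and their lengths ran from 371 to 2204 bp. The summits of the libraries lay a median of 30 bp from the median summit of their region in both sets. The median −log10 q-value of their peaks was 4.36 against 4.46. The regions were spread over all 20 autosomes, at 0.249% of such regions on chromosome 15 to 0.679% on chromosome 5, with 0.474% over all.

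The distances between the chosen regions are a description and were not compared with those of other regions. None was within 10 kb of another, 17 were within 100 kb and 88 within 1 Mb. The 17 formed 8 groups, of which the largest held 3 regions on chromosome 12 (regions 301, 30 and 238), from 46648365 to 46753937. These had 8, 8 and 7 CON calls, 7, 8 and 7 PAE calls and 3, 2 and 3 PF calls. Region 5, one of the 10 examples, lay 67.0 kb from region 231, which had calls in 7 CON, 9 PAE and 3 PF libraries.

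The number of such regions can be read only against the number that the same rule finds when the treatment is assigned otherwise, because the rule selects on the calls. The 15 litters were relabelled in all 756756 ways of forming 3 groups of 5, with both littermates moved together, which gives 378378 distinct values for 1 group against the other two. The relabelled number had a median of 365, quartiles of 285 and 477, and a range of 87 to 1299. The observed 316 was below that median (exact permutation test, one-sided, p = 0.656, and 0.656 after Benjamini-Hochberg adjustment over 3 patterns). The same rule gave 351 regions lost only in CON (p = 0.545, adjusted 0.656) and 743 lost only in PAE (p = 0.0496, adjusted 0.149) in the exact permutation test. A further 709 regions had the opposite pattern, gained only after pair-feeding, and were not tested. The number of regions lost only after pair-feeding did not exceed what relabelled litters gave.

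**Figure D3:**
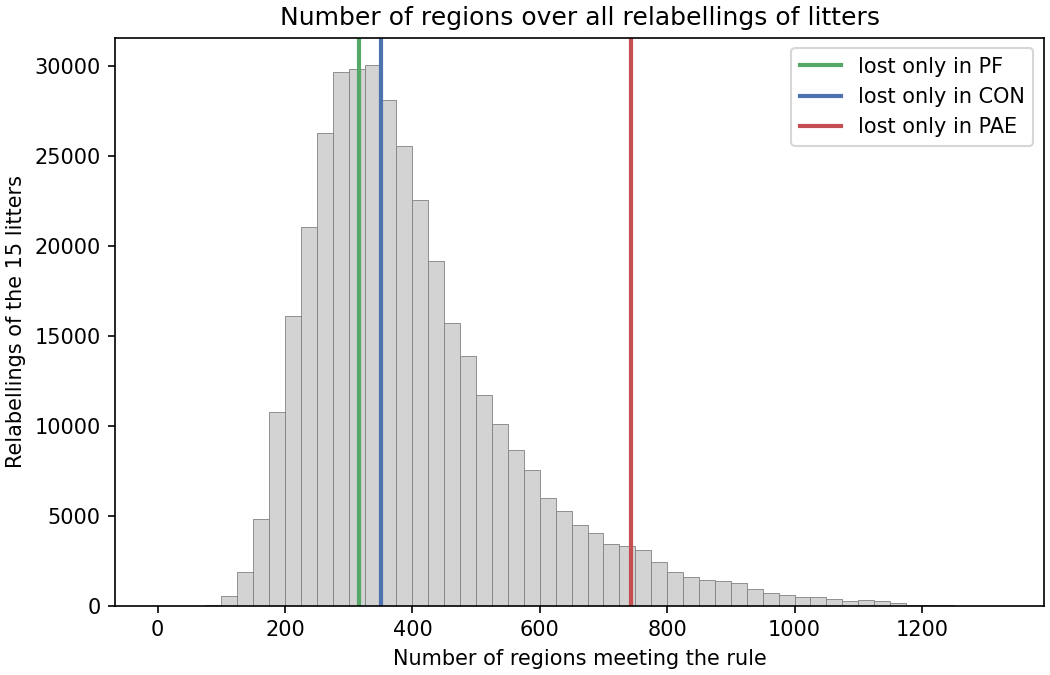
Number of regions that meet the rule (x axis) over all distinct relabellings of the 15 litters (y axis, number of relabellings, in bins of 25 regions), with lines at the observed numbers lost only in PF (316), CON (351) and PAE (743). The PF line lies left of the relabelled median of 365.

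The number depended on the limits of the rule, and with them it lay above or below the relabelled median. With at most 2 PF and at least 8 CON and PAE libraries, 17 regions were found (exact permutation p = 0.346), against a relabelled median of 13. With at most 4 PF and at least 6 of the others, 3342 were found (exact permutation p = 0.665), against a median of 3730. With equal numbers of peaks per library the number was 263 (exact permutation p = 0.630), against a median of 277. On lanes 5, 6 and 8 alone, with 4 CON, 8 PAE and 8 PF libraries, the same shares of libraries gave 551 regions, 151 of them among the 316, and no relabelled number was computed for them.

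To see whether regions chosen this way were also low in PF animals that had no part in the choice, they were chosen anew in the libraries of one labelled sex and read in those of the other. In the libraries labelled female, 698 regions had calls in at most 1 of 5 PF, at least 4 of 5 CON and at least 4 of 5 PAE libraries, 93 of them among the 316. In the 5 libraries labelled male of each group, these 698 regions were called at 48.3%, 49.6%, 55.9%, 59.2% and 62.9% in PF, at 49.6%, 50.4%, 52.9%, 57.9% and 73.6% in CON, and at 42.0%, 48.9%, 50.1%, 59.7% and 61.9% in PAE. The 3 groups overlapped. The means were 55.2% ± 6.22 in PF, 56.9% ± 9.91 in CON and 52.5% ± 8.22 in PAE (SD, n = 5 each).

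The difference was -1.72 percentage points for PF minus CON (exact permutation test, two-sided, p = 0.794) and 2.64 for PF minus PAE (exact permutation p = 0.595). After adjustment over the 4 tests of both directions each p was 0.817, and the smallest p the design allows is 0.00794. The gap seen in the libraries used for the choice, where PF stood at 9.17% to 42.0% and CON and PAE at 71.2% to 95.0%, was not found in their littermates.

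In the libraries labelled male, 398 regions were chosen, 63 of them among the 316. In the libraries labelled female these were called at 48.7%, 55.5%, 56.0%, 59.8% and 71.1% in PF, at 48.5%, 55.5%, 55.8%, 63.1% and 76.9% in CON, and at 56.5%, 56.5%, 57.3%, 57.5% and 69.8% in PAE. The means were 58.2% ± 8.22 in PF, 59.9% ± 10.8 in CON and 59.5% ± 5.78 in PAE (SD, n = 5 each). PF minus CON was -1.71 percentage points (exact permutation p = 0.794) and PF minus PAE was -1.31 (exact permutation p = 0.817), with an adjusted p of 0.817 for both. The groups overlapped again.

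One setting moved a hold-out value past an unadjusted p of 0.05. Each library's share over the regions called in 14 to 23 libraries was higher in the PF libraries labelled male (62.6% ± 5.49) than in the PAE ones (54.5% ± 10.1, SD, n = 5 each). With that share subtracted, PF minus PAE at the 698 regions was -5.48 percentage points (exact permutation p = 0.0238), where the unsubtracted difference was 2.64. In the opposite direction of choice the same subtraction gave -1.28 for PF minus PAE, and for PF minus CON it gave -2.31 and 0.0280. With the subtraction PF was thus lower than PAE in both directions, but lower than CON only at the regions chosen in libraries labelled female. Of these differences only the -5.48 had an unadjusted exact permutation p under 0.05.

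**Figure D4:**
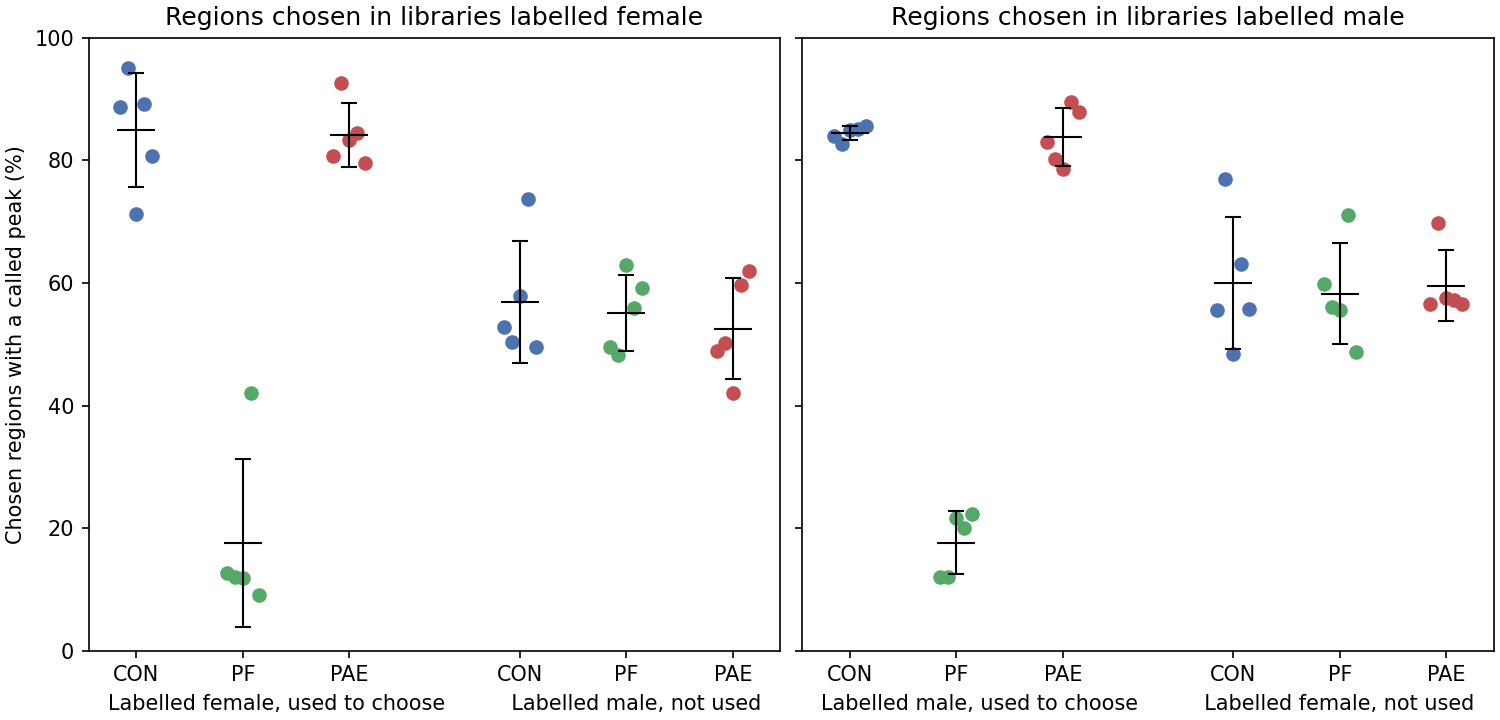
Share of chosen regions with a called peak (y axis, percent) in each library, with the regions chosen in libraries labelled female (698, left panel) or male (398, right panel). In each panel the 3 groups on the left were used to choose and the 3 on the right were not, bars are the mean ± SD of 5 libraries, and the gap of PF on the left of each panel is absent on its right.

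The neighbourhood of the chosen regions was read next, since the rule did not use its values. Within 10 kb lay 1083 other tested regions. Heights on the log2 scale were fitted with limma over all 352026 tested regions, in a model of group, lane and labelled sex, with the Benjamini-Hochberg adjustment taken over all of them. At an FDR of 0.05, 0 of the 1083 neighbours differed between PF and CON, and the background over all tested regions was 0%. At an unadjusted p under 0.05, 56 of the 1083 (5.17%) were lower in PF and 32 (2.95%) higher, against backgrounds of 4.4% lower and 2.06% higher. The median log2 difference of the neighbours was -0.03, as over all tested regions, at -0.03.

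Between PF and PAE, 0 of the 1083 neighbours passed the FDR, with a background of 0%. At an unadjusted p under 0.05, 19 (1.75%) were lower and 34 (3.14%) higher in PF, against backgrounds of 1.51% and 2.95%. Without PF 27_F, 2.03% were higher, and the background of that fit was not computed. With all libraries the median log2 difference was 0.03, against 0.02 over all tested regions. The lowest limma adjusted p among the neighbours was 0.773 for PF against CON and 0.988 for PF against PAE. Within 2 kb, 3 of 182 neighbours (1.65%) were lower and 6 (3.30%) higher in PF than in CON. Against PAE, 1 of these 182 (0.549%) was lower and 7 (3.85%) higher in PF.

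By distance from a chosen region, the median log2 difference was highest at 1 to 2 kb in both comparisons. Among the 86 neighbours within 1 kb the median log2 difference was -0.04 for PF minus CON and 0.04 for PF minus PAE. It was 0.01 and 0.11 among the 96 at 1 to 2 kb, -0.02 and 0.04 among the 285 at 2 to 5 kb, and -0.04 and 0.03 among the 616 at 5 to 10 kb. Among the 4437 at 10 to 50 kb it was -0.04 and 0.02. In no bin did the neighbours have a lower median in PF than in PAE.

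**Figure D5:**
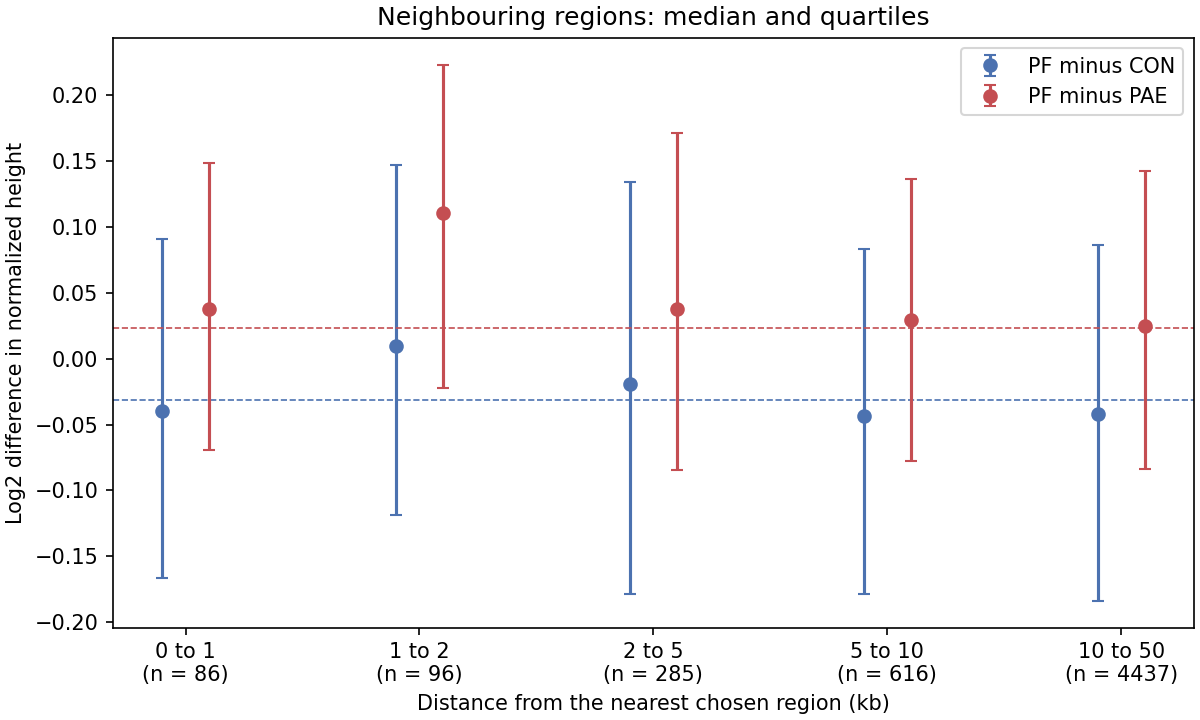
Log2 difference in normalized height (y axis) of tested regions near the chosen ones, by distance (x axis, kb), for PF minus CON and PF minus PAE. Points are medians, bars reach from the lower to the upper quartile, dashed lines are the medians over all 352026 tested regions, and the quartile bars of each bin span 0.

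The difference between PAE and CON at the 316 regions is a description, because the rule asked for at least 7 calls in both. The median log2 difference of PAE minus CON was -0.10, against -0.05 over all tested regions, and 0.05 with quantile normalization. By calls, CON had more libraries than PAE at 91 regions, PAE had more at 76, and the number was equal at 149.

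Labelled sex had no part in the rule, though the libraries compared include the PF libraries whose calls it used. Between libraries labelled male and female 0 of the 316 regions passed the limma FDR, with a background of 0%. At an unadjusted p under 0.05, 24 (7.59%) were lower and 5 (1.58%) higher in those labelled male, against backgrounds of 3.55% and 1.57%. Without CON 41_F or without CON 45_F, 13 regions (4.11%) were lower, and without PAE 3_F 35 (11.1%) were. With the dam as a block, 21 (6.65%) were lower and 5 (1.58%) higher, against backgrounds of 4.39% and 2.07% in that fit. The lowest unadjusted p was at region 26, chr19:57688908-57689610, which had calls in 11 libraries labelled female and 4 labelled male and a log2 difference of -0.62 ± 0.15 (SE), with a limma adjusted p of 0.854. With quantile normalization the counts were 13 lower and 8 higher. Backgrounds were not computed for quantile normalization or for the fits that left out a library. Without a lane term, 28 regions were lower and 3 higher in all 30 libraries, against backgrounds of 3.74% and 1.38%. In the 12 libraries whose peaks matched their labelled sex, 2 labelled female and 10 labelled male, also without a lane term, 2 regions (0.633%) were lower and 6 (1.90%) higher. The backgrounds of that fit were 4.65% and 0.952%, and 649 of all tested regions passed its FDR. The median at the 316 regions was 0.01 there, against -0.08 in all libraries.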

How the data were processed

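Libraries of 15 litters (30 in all) were grouped by the treatment, dam, lane and sex in their labels. The authors used BWA for alignment to Rn6, SAMtools for filtering and MACS2 (2.1.4 per the file headers) for peaks of each library, with paired ends, a q-value threshold of 0.05 and no control library. The deposited signal of a peak is its pileup, unscaled, and the deposited −log10 q-value set the stricter peak threshold. Steps of the authors on read counts, with DiffBind and ComBat, were not repeated.

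Rows of the same peak were joined and autosomal peaks that shared at least 1 bp were merged. Heights were scaled to 1000000 filtered fragments, with a floor of 0.438 for libraries without a call and for called peaks under it. Coverage without a call is unknown. That limits precision to called peaks, and 11548314 to 16555049 fragments lay behind each library. The members and lists were chosen with earlier results of these data known.

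The number of regions was compared with all relabellings of litters, and hold-out shares with exact permutation tests (Python 3.11.15, numpy 2.4.6, pandas 2.3.3, scipy 1.17.1, matplotlib 3.10.9). Log2 heights were modelled in R 4.3.3 by limma 3.58.1, with prior variances that follow a trend. Both procedures were tested on simulated data. Littermates share a dam, and a random effect of litter was an alternative.

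Regions described are the 10 with the largest difference between the lower of the CON and PAE call counts and the PF count, ties going to the larger log2 ratio of mean heights, the longest, the highest, those at an interval with a listed gene, and runs within 100 kb. Genes come from the supplementary tables of the study. Sequence and annotation of Rn6 were not used here. Alternatives changed the peak threshold, the overlap, the merging gap, the number of peaks, the limits of the rule, the lanes, the model, the floor, the scaling, the flank and the libraries. The fits on libraries that match their labelled sex and with the dam as a block were chosen after seeing the data, as were region 26 and the regions within 20 kb of a listed gene.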

Additional observations from a re-analysis of the deposited data

Results flagged for a closer look

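Of 48 sets of 5 or 10 libraries looked at, 11 had a library far from the rest by Dixon's test. Its limits are set for about 1 of 20 sets by chance. Sets with values tied at the floor do not follow that rate, so the 11 cannot be compared with it. PF libraries account for 9 of the 11, and they stand apart because the choice of these regions leaves PF with 1 or 2 called libraries above a floor of 0.438. These were 27_F at region 1 (0.716), region 2 (1.03), region 4 (1.11) and region 6 (1.03), 27_M at region 5 (0.846), region 7 (0.604) and region 10 (0.966), 28_F at region 8 (0.849) and 22_M at region 9 (1.32), all as normalized heights. Among CON libraries, 45_F stood at 1.20 at region 6, where the next was 0.720. Among the PAE libraries labelled female, 2_F had calls at 69.8% of the regions chosen in libraries labelled male, where the next had 57.5%.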

How the results depend on the processing

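The number of regions lost only after pair-feeding, 316, was 181 when peaks had to cover at least 50% of a region, 17 and 3342 under the stricter and the looser limits, and 551 on lanes 5, 6 and 8. Without each library in turn it was 111 (without PF 24_M) to 216 (without CON 43_M or PAE 3_M), since 9 libraries of a group make the same shares stricter, and 27 of the 30 values were more than 1.5 times below 316. It was 283 at q below 0.01, 318 with gaps of 100 bp merged and 263 with equal numbers of peaks, and the p against relabelled litters stayed over 0.05 in the 6 alternatives where it was computed.

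The hold-out differences, in percentage points, changed sign as follows. For regions chosen in libraries labelled female, PF minus CON was 0.0487 with equal numbers of peaks, and PF minus PAE was -5.48 after subtraction of the share over regions called in 14 to 23 libraries, -1.995 with equal numbers of peaks and -13.3 at the 3 regions with 0 of 5 PF and all other libraries called. For regions chosen in libraries labelled male, PF minus CON was 0.0280 after that subtraction and 1.505 with equal numbers of peaks. No region met the strictest limits there. Leaving out each library gave -3.65 to 2.47 and 0 to 4.98 for PF minus CON and PF minus PAE in the first direction, and -4.92 to 2.53 and -4.52 to 1.27 in the second. The cause was not tested.

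The fitted median log2 difference at the 316 regions, a description, was -0.498 for PF minus CON and -0.394 for PF minus PAE. With 0.1 added to each height in place of the floor it was -1.59 and -1.50, so its size depends on the floor. The counts at an FDR of 0.05 were 0 in each alternative for the neighbours and for labelled sex. Quantile normalization turned the median log2 difference of the neighbours between PF and CON to 0.0044 and that of PAE minus CON at the 316 regions to 0.0457, and the 12 libraries that match their labelled sex gave 0.0108 for labelled male minus female. At an unadjusted p under 0.05, on lanes 5, 6 and 8 57 of 1083 neighbours were lower and 11 higher in PF than CON. Quantile normalization gave 31 lower and 22 higher. Backgrounds were not computed for either fit, so these counts cannot be set against all tested regions. Within 2 kb, 3 of 182 neighbours were lower and 6 higher in the main fit, with its backgrounds of 4.4% and 2.06%. The littermates had a consensus correlation of -0.0305. With a random effect of litter the neighbours were lower in PF than in CON at 61 and higher at 34. In that fit 22 of the 316 regions were lower and 5 higher in libraries labelled male, and its backgrounds were not computed. With the dam as a replicate block, 0 of the 316 regions passed the FDR between the labelled sexes. No paired analysis was possible for the treatments because each dam belongs to 1 group. Peaks hold no coverage from under the threshold, so a missing call does not show the absence of methylated DNA.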
